A study of Sus scrofa with 21 samples.

Results

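The cytochrome P450 genes were taken as every pig gene whose Ensembl name begins with CYP and a digit, leaving out the sterol synthesis enzyme CYP51A1. The table of gene names held 36 such names, and 26 of them had values in the files, out of 18661 genes in all and 14276 with a symbol. Genes without a symbol in that table could not be assigned to the family. The other 10 names, CYP2B6B, CYP2C42, CYP2C49, CYP2E1, CYP2J34, CYP3A29, CYP4A21, CYP4A24, CYP20A1 and CYP21A2, were not analysed here. The RNA came from the distal small intestine of 21 piglets (Danish Landrace/Yorkshire) that were killed when 24 to 25 days old. Of these, 10 control piglets had drunk a milk replacer, and 11 piglets, called the starch group, had drunk that replacer mixed with wheat, whose starch the design names. Piglets are named by group and number, as control 1 to 10 and starch 1 to 11. The labels state neither sex nor litter nor batch, and p-values measure the spread between these piglets.

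Cytochrome P450s are haem enzymes that insert an oxygen atom into fat-soluble molecules, with electrons supplied by NADPH through the reductase POR or, in mitochondria, through ferredoxin. Families CYP1 to CYP3 are best known for oxidising drugs, plant compounds and toxins, while other families make or break down bile acids, fatty acid signals, vitamin D, retinoic acid and steroid hormones. In the small intestine they sit largely in the absorptive cells of the villus, where they meet compounds from the diet before the liver does. The receptors PXR (gene NR1I2), CAR (NR1I3), FXR (NR1H4), the vitamin D receptor and the aryl hydrocarbon receptor control many of them.

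Depth ran from 6719264 to 8610458 total expected counts per piglet. Of the 26 members, 12 were listed in all 21 piglets, and between 14 and 23 were listed in any one piglet. After the filter on low counts 11 members were tested among 13127 genes, and 15 were not. Counts of CYP4F3 were not whole (tolerance 0.02) in 16 piglets and those of CYP27A1 in 1, so the deposited estimate had divided some of their reads with another gene. The level of CYP4F3 is therefore uncertain by the share that a similar gene takes.

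Absorptive content was measured as a score, the mean log2 CPM (counts scaled to library size, prior count 2) of 23 genes of villus absorptive cells that hold no P450 gene, centred over the piglets and divided by its SD. One SD stands for 2.05 log2 units in the average absorptive gene. Starch 3 (-2.62), control 8 (-2.21) and control 5 (-2.08) lay far below the other 18 piglets, which ran from -0.13 in starch 4 to 0.84 in control 2. The gap of 1.95 SD was 56.4% of the whole range of 3.459. Slopes of the tested members are therefore given with and without them, while the slopes of members below the filter come from all 21 piglets. In whole tissue, fewer cells of a type and less RNA per cell cannot be told apart.

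Of the 26 members measured, 2 held the highest levels. On the FPKM scale, which is per coding length and allows levels of different genes to be compared, CYP4F3, the hydroxylase that inactivates leukotriene B4 and acts on long fatty acids, had the highest mean level (130.5 ± 95.1 FPKM, SD, n = 21). CYP2W1, an enzyme of uncertain substrate known from fetal gut and from colorectal tumours, came next (71.9 ± 64.9 FPKM). CYP2D6, named for the human enzyme that oxidises many amine drugs, followed at 19.7 ± 13.6 FPKM. Then came CYP2R1 (9.41 ± 1.81), CYP39A1 (9.12 ± 2.46), CYP2S1 (7.93 ± 3.20), CYP27A1 (7.29 ± 3.34), CYP4V2 (5.72 ± 2.95), CYP2U1 (2.91 ± 1.31), CYP2A19 (2.17 ± 1.39) and CYP7B1 (2.00 ± 0.855 FPKM). All of the other 15 had mean levels under 1 FPKM.

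The mean ± SD ranges of every pair of neighbours in this order overlapped. Within piglets some steps were steadier than others. CYP4F3 exceeded CYP2W1 in 16 of 21 piglets, CYP2W1 exceeded CYP2D6 in 17, CYP2D6 exceeded CYP2R1 in 19 and CYP4V2 exceeded CYP2U1 in 21. CYP2R1 and CYP39A1 had no settled order, with CYP2R1 higher in 12 piglets. CYP27A1 exceeded CYP4V2 in 12 and CYP2A19 exceeded CYP7B1 in 11. CYP2S1, though higher in mean level, exceeded CYP27A1 in only 7. CYP4F3 was the leading member in 14 piglets and CYP2W1 in 4, and in control 5, control 8 and starch 3 the lead fell to CYP4V2, CYP2D6 and CYP2S1. The summed level of the 26 members was 62.9 to 88.37 FPKM in those 3 piglets and 159.2 to 530.53 FPKM in the other 18. CYP4F3 made up 2.85 to 7.32% of that sum in the 3 and 31.84 to 84.24% in the 18, with the highest share in starch 4.

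Members differed widely in how far they varied between piglets. CYP2R1 was the steadiest of the tested members, with a coefficient of variation of 19.2%, followed by CYP39A1 at 27%. CYP2W1 (90.3%) and CYP4F3 (72.9%) varied most, with a highest value 175 and 173 times the lowest. Among the 18 piglets CYP2W1 still varied most (75.5%, highest value 31.2 times the lowest), while CYP4F3 (56.5%, 6.56 times) lay below CYP2D6 (64.4%).

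**Figure D1:**
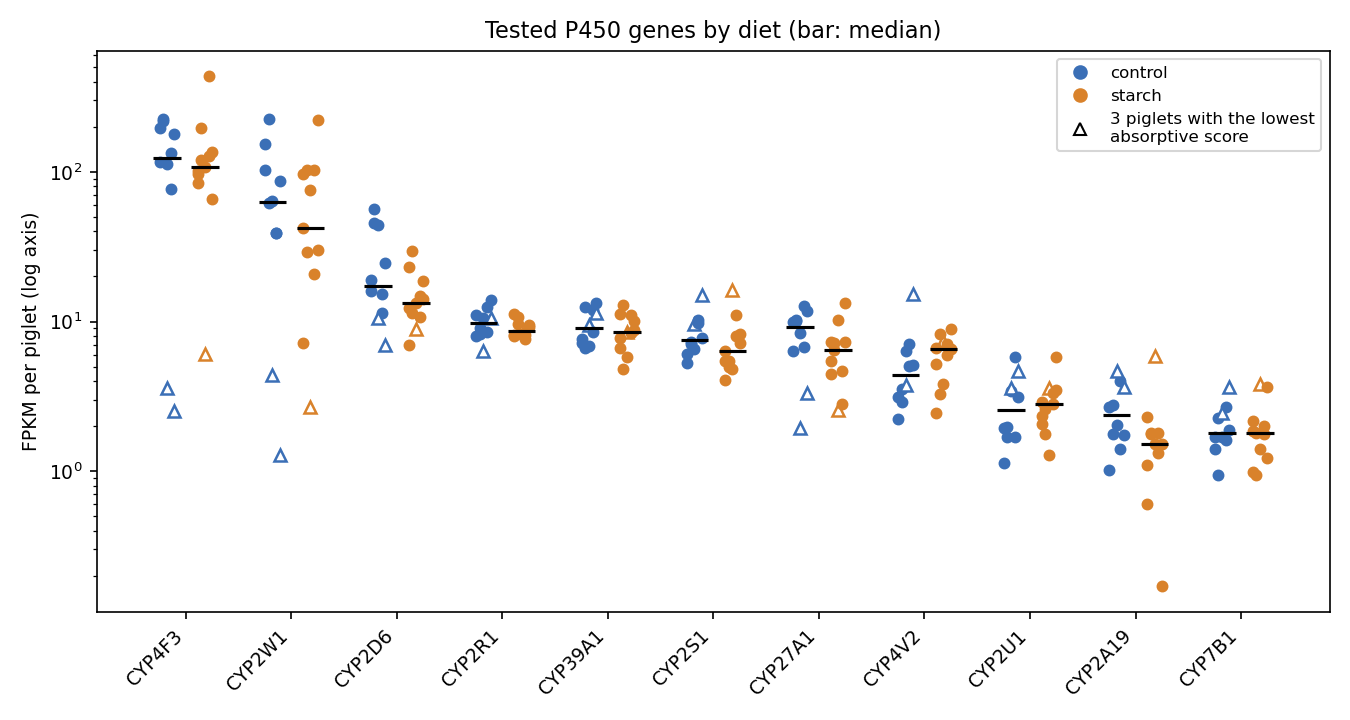
Level of each tested P450 gene in each piglet, in FPKM on a log axis, with control piglets in blue, starch piglets in orange, the median of each diet as a bar and the 3 piglets of lowest absorptive score as open triangles. The diets overlap for every gene, and the triangles of CYP4F3 (2.52 to 6.04 FPKM) and CYP2W1 (1.28 to 4.39 FPKM) sit below all other points of those genes.

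The comparison of the diets asks whether wheat starch added to milk replacer goes with other levels of P450 RNA in the gut wall. No member passed the threshold, an adjusted p of 0.05, for a diet difference in edgeR's quasi-likelihood test (0 of 11, beside 0% of the 13127 genes tested), and the smallest adjusted p of any gene was 0.9998. At an unadjusted p of 0.05 the test gave 174 genes and 0 members. DESeq2 also called 0 genes, and gave 191 genes and 1 member at an unadjusted p of 0.05. The median log2 fold change, starch minus control, was -0.10 over the 11 members and 0.00 over all genes tested. Without control 5, control 8 and starch 3 the count was again 0 of 11, beside 0% of 13139 genes, with 382 genes and 1 member, CYP2D6, at an unadjusted p of 0.05. At equal absorptive score, with the score as a further term, 0 members and 0% of genes were called, and 285 genes and 1 member, CYP2D6, had an unadjusted p under 0.05.

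More members were called for the absorptive score than for the diet. In the edgeR model with score and diet, 8 of 11 members (72.7%) changed with the score at an adjusted p of 0.05, 4 upward and 4 downward, beside 38.2% of all genes tested, 19.2% upward and 19% downward. The members that rose with the score were CYP2W1, CYP4F3, CYP27A1 and CYP2D6, and those that fell were CYP2A19, CYP2S1, CYP7B1 and CYP4V2. The median slope was -0.01 over the members and -0.01 over all genes, in log2 units per SD. On log2(FPKM + 0.5) with limma 7 of 11 members were called, beside 39% of the 13342 genes with an FPKM of at least 1 in 10 piglets, and 35.4% of the genes called rose, against 50.3% with edgeR. DESeq2 also called 8, beside 40.8% of genes. None of the scalings or units tried turned the sign of a called member. Without the 3 piglets of lowest score, 0 of 11 members were called beside 5.53% of 13139 genes. At an unadjusted p under 0.05 in edgeR there were 6 members, beside 3053 of those genes. In those 18 the slopes of CYP2W1, CYP27A1, CYP2D6, CYP2S1, CYP7B1 and CYP4V2 kept their sign and were larger in size than in 21, with wider errors over the narrower range of scores. The slope of CYP4F3 fell to 0.02 and that of CYP2A19 turned.

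Leaving out single piglets gave 6 to 9 calls among the members, and the shares of all genes called in those fits are not given here. CYP2U1 became called without control 9 (slope -0.25, adjusted p = 0.0498 in edgeR). CYP4V2 was no longer called without control 5 (slope -0.11, adjusted p = 0.486 in edgeR), control 2, control 6, control 7 or starch 2, CYP2A19 without starch 3 (-0.25, adjusted p = 0.325) or control 8 (adjusted p = 0.0567), and CYP7B1 without starch 3 (adjusted p = 0.0964). With a score built from a list of general epithelial genes in place of the absorptive list, 0 of 11 members were called beside 18.9% of genes, and with smooth muscle content as a further term 4 were (CYP2W1, CYP4F3, CYP27A1 and CYP2S1), beside 26.2%. The slope itself differed between the diets for 0 of 11 members and 0% of genes in edgeR, with 333 genes and 1 member, CYP4F3, at an unadjusted p under 0.05.

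**Figure D2:**
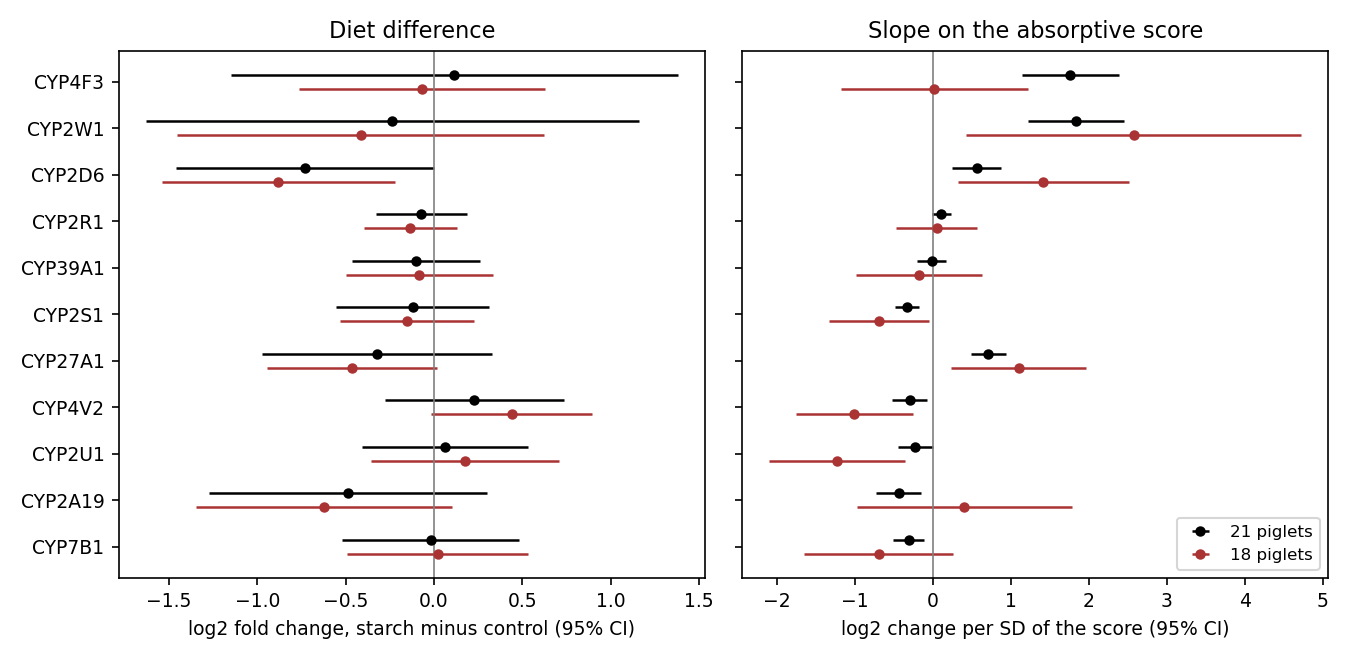
Log2 fold change between the diets (left, starch minus control) and log2 change per SD of the absorptive score (right) for the 11 tested P450 genes, with 95% confidence intervals, in all 21 piglets (black) and in the 18 left without control 5, control 8 and starch 3 (red). The diet interval of CYP2D6 reaches just past 0 with 21 piglets and lies below 0 with 18, and the slope of CYP4F3 falls from 1.76 to 0.02.

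The CYP2 and CYP3 enzymes are families best known for oxidising drugs and foreign compounds. No member analysed here was a CYP3 gene, and CYP3A29 was among the names without values. The CYP2 names CYP2B6B, CYP2C42, CYP2C49, CYP2E1 and CYP2J34 had no values either. Of the CYP2 members placed in this group, 4 were tested, and CYP2R1 and CYP2U1 are described with vitamin D and fatty acids. CYP2W1 ran from 1.28 (control 5) through a median of 62.8 to 224.04 FPKM (control 7) in control piglets, and from 2.69 (starch 3) through 42.33 to 222.66 FPKM (starch 5) in starch piglets. The diets covered nearly the same range, and both ends of the range occurred in each. Its diet difference was -0.24 on the log2 scale (95% interval -1.63 to 1.16). Against the absorptive score CYP2W1 had the steepest slope of the members, 1.84 per SD (SE 0.30, adjusted p = 4.3e-05 in edgeR). Its levels in control 5, control 8 and starch 3 were 1.28, 4.39 and 2.69 FPKM, and the other 18 piglets lay between 7.17 (starch 11) and 224.04 FPKM, so these sets did not overlap. In the 18 the slope was 2.58 (SE 1.03, unadjusted p = 0.021, adjusted p = 0.138 in edgeR). Of its counts, 86.3% fell on 1 of its 3 transcripts, the one with a coding length of 1257 bases.

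CYP2D6 ran from 6.94 (control 5) through 17.3 to 56.44 FPKM (control 2) in control piglets and from 7.00 (starch 6) through 13.35 to 29.77 FPKM (starch 2) in starch piglets. Control 2, control 3 (44.16 FPKM) and control 7 (45.72 FPKM) exceeded every starch piglet, control 5 lay just below them all, and the other 6 lay within the range of the starch group. The log2 fold change was -0.73 (SE 0.35, 95% interval -1.46 to 0.00, unadjusted p = 0.0502, adjusted p = 0.9998 in edgeR), the smallest unadjusted p of the members, and -0.48 without control 2. In the 18 piglets it was -0.88 (unadjusted p = 0.0114, adjusted p = 0.9999 in edgeR), and at equal score -0.68 (unadjusted p = 0.0227). CYP2D6 rose with the absorptive score by 0.56 per SD (SE 0.15, adjusted p = 0.0052 in edgeR), and in the 18 the slope was 1.42 (SE 0.52, adjusted p = 0.111). Its levels in control 5, control 8 and starch 3, at 6.94, 10.51 and 8.89 FPKM, lay at the low end of the 18 but overlapped them.

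CYP2S1, a P450 of epithelia outside the liver, and CYP2A19, the pig relative of the human enzyme that clears nicotine, went the other way. CYP2S1 ran from 5.29 (control 1) through 7.52 to 14.98 FPKM (control 5) in control piglets and from 4.04 (starch 1) through 6.33 to 16.35 FPKM (starch 3) in starch piglets. It fell with the score by 0.33 per SD (SE 0.07, adjusted p = 0.0012 in edgeR), with 14.98, 9.59 and 16.35 FPKM in control 5, control 8 and starch 3 against 4.04 to 11.12 FPKM in the 18. Control 5 and starch 3 exceeded all of the 18. In the 18 its slope was -0.69 (unadjusted p = 0.0375, adjusted p = 0.185 in edgeR).

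CYP2A19 ran from 1.02 (control 1) through 2.37 to 4.67 FPKM (control 8) in control piglets and from 0.17 (starch 5, 2 counts) through 1.52 to 5.92 FPKM (starch 3) in starch piglets. It fell with the score by 0.43 per SD (SE 0.14, adjusted p = 0.018 in edgeR), but in the 18 piglets the slope turned to 0.41 (SE 0.66, unadjusted p = 0.543). Its highest levels, 5.92 and 4.67 FPKM, were those of starch 3 and control 8, and the third, 4.03 FPKM, was that of control 4. The diet differences of both genes were within the spread between piglets, at -0.12 (95% interval -0.55 to 0.31) for CYP2S1 and -0.49 (-1.27 to 0.30) for CYP2A19. Without starch 3 they were -0.29 and -0.84, and the value of CYP2S1 was -0.05 without control 5.

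**Figure D3:**
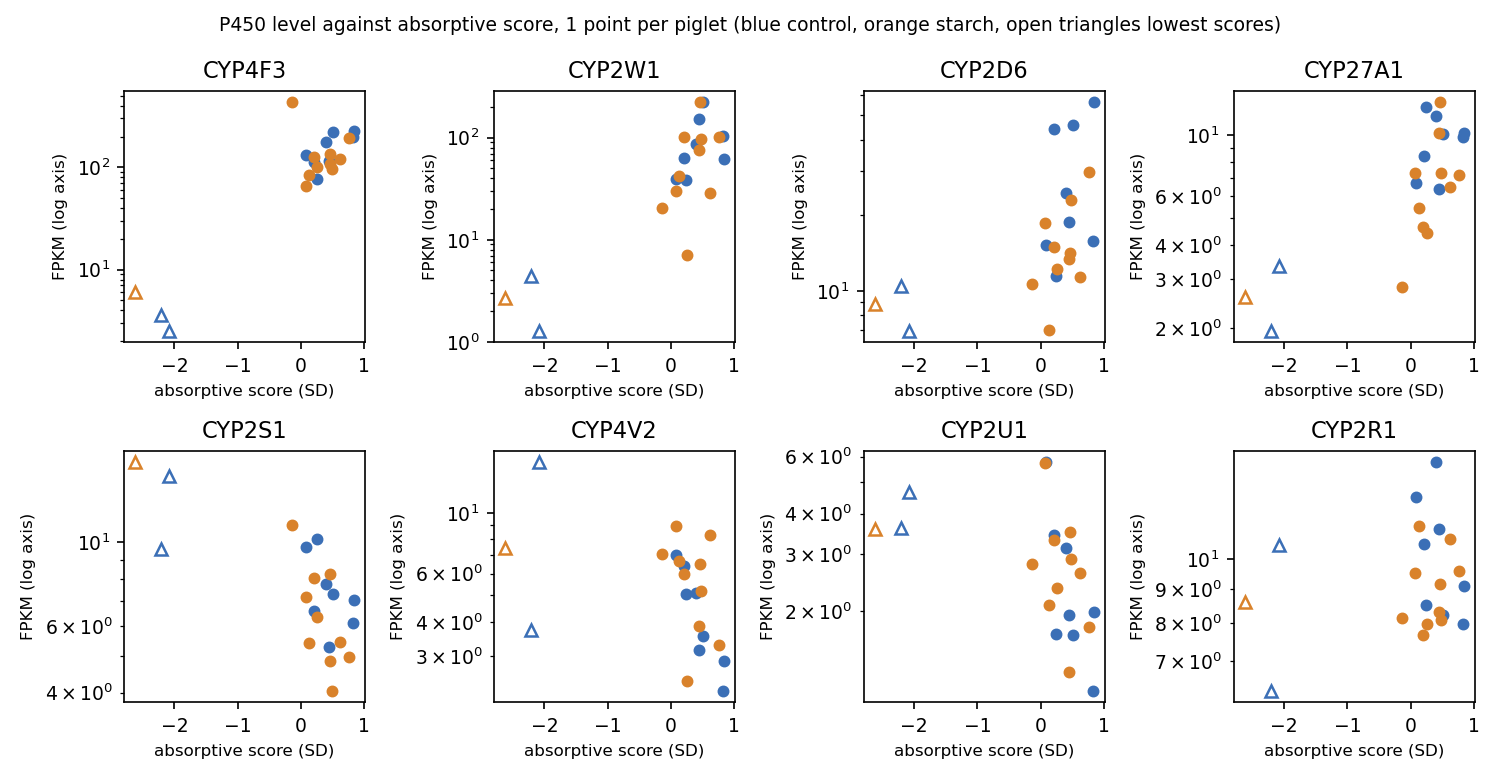
Level of 8 P450 genes in FPKM (log axis) against the absorptive score in SD, with 1 point per piglet, control in blue, starch in orange and the 3 piglets of lowest score as open triangles. CYP4F3 and CYP2W1 are lowest in the 3 triangles, CYP2S1 is highest in 2 of them, and CYP2R1, whose slope was not called, ranges from 6.31 to 14.03 FPKM.

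Of the members that act on fatty acids, CYP4F3, CYP4V2 and CYP2U1 were tested. CYP4F3 ran from 2.52 (control 5) through 124 to 225.68 FPKM (control 2) in control piglets and from 6.04 (starch 3) through 108.50 to 435.34 FPKM (starch 4) in starch piglets. Starch 4 stood alone at the top, with the next piglet at 225.68 FPKM, and the 3 piglets of lowest score, at 2.52, 3.58 and 6.04 FPKM, stood below the 66.36 FPKM of starch 10. The diet difference was 0.12 on the log2 scale (95% interval -1.15 to 1.38), -0.07 in the 18 piglets and -0.43 when starch 4 was left out as well. Its 2 transcripts, both with a coding length of 1575 bases, each carried 50.0% of the counts, so these files do not tell them apart.

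The slope of CYP4F3 on the score was 1.76 per SD (SE 0.30, adjusted p = 7.4e-05 in edgeR). Among the 18 piglets it was 0.02 (SE 0.57, adjusted p = 0.986), and starch 4 combined the highest CYP4F3 level with the lowest score of the 18. Leaving out starch 4 as well, a choice made after the values were seen, gave a slope of 1.75 (SE 0.34, adjusted p = 0.0101), the only member called among 17 piglets, where 5.39% of 13089 genes were. The slope differed between the diets by -0.96 (starch minus control, unadjusted p = 0.0423, adjusted p = 0.9998 in edgeR) in all 21 piglets, by -2.73 (unadjusted p = 0.0192, adjusted p = 0.457) in the 18 and by -0.17 (unadjusted p = 0.817) in the 17.

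CYP4V2, a fatty acid hydroxylase known from an inherited eye disease, ran from 2.24 (control 6) through 4.41 to 15.34 FPKM (control 5) in control piglets and from 2.44 (starch 11) through 6.53 to 8.93 FPKM (starch 10) in starch piglets. Control 5 was the one piglet above 8.93 FPKM. CYP4V2 fell with the score by 0.30 per SD (SE 0.11, adjusted p = 0.0365 in edgeR), and in the 18 the slope was -1.01 (SE 0.36, unadjusted p = 0.0111, adjusted p = 0.0996). The call was lost in edgeR without the filter (adjusted p = 0.0506), without the diet term (0.0592) and with the replicate number as a block (0.241). It was also lost with limma on log2(FPKM + 0.5) (adjusted p = 0.0664). The diet difference of CYP4V2 was 0.23 (95% interval -0.28 to 0.74), and 0.44 (-0.01 to 0.89) in the 18.

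CYP2U1, which hydroxylates arachidonic acid and related fatty acids, ran from 1.13 (control 6) through 2.56 to 5.78 FPKM (control 9) in control piglets and from 1.29 (starch 8) through 2.80 to 5.75 FPKM (starch 10) in starch piglets. The medians and ends of the diets were close, with a log2 fold change of 0.06 (95% interval -0.41 to 0.54). Its slope was -0.22 per SD (SE 0.11, adjusted p = 0.115 in edgeR) in 21 piglets and -1.22 (SE 0.42, unadjusted p = 0.0083, adjusted p = 0.088) in 18, the smallest unadjusted p of the members there.

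The sterol and bile acid members comprised CYP27A1, CYP39A1 and CYP7B1 among those tested. CYP27A1, the mitochondrial sterol hydroxylase that opens the acidic route of bile acid synthesis, ran from 1.95 (control 8) through 9.17 to 12.63 FPKM (control 4) in control piglets and from 2.58 (starch 3) through 6.47 to 13.22 FPKM (starch 5) in starch piglets. It rose with the score by 0.71 per SD (SE 0.11, adjusted p = 2.0e-05 in edgeR), with 3.35, 1.95 and 2.58 FPKM in control 5, control 8 and starch 3 and 2.82 to 13.22 FPKM in the 18. Starch 4, the piglet of lowest score among the 18, had the lowest CYP27A1 of them. In the 18 the slope was 1.10 (SE 0.41, unadjusted p = 0.015, adjusted p = 0.117). The diet difference was -0.32 (95% interval -0.97 to 0.33) and in the 18 piglets -0.47 (-0.95 to 0.02).

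CYP39A1 and CYP7B1 both hydroxylate oxysterols on the way to bile acids, yet only CYP7B1 was called for the score, and the difference between these slopes was not tested. CYP39A1 ran from 6.68 (control 7) through 9.05 to 13.36 FPKM (control 10) in control piglets and from 4.81 (starch 2) through 8.51 to 12.83 FPKM (starch 7) in starch piglets. Its slope was -0.01 per SD (95% interval -0.20 to 0.18), and -0.17 (-0.98 to 0.63) in the 18, and its diet difference -0.10 (-0.47 to 0.26). The levels of the 3 piglets of lowest score, 11.39, 9.52 and 8.51 FPKM, lay within the range of the others.

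CYP7B1 ran from 0.94 (control 7) through 1.80 to 3.66 FPKM (control 5) in control piglets and from 0.94 (starch 2) through 1.80 to 3.82 FPKM (starch 3) in starch piglets, so the diets shared their median. It fell with the score by 0.31 per SD (SE 0.10, adjusted p = 0.0157 in edgeR). Control 5 and starch 3 had the highest levels, and starch 10 came next at 3.64 FPKM. In the 18 the slope was -0.69 (SE 0.46, adjusted p = 0.378).

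CYP2R1, the hydroxylase that makes the circulating form of vitamin D, was the steadiest member. It ran from 6.31 (control 8) through 9.80 to 14.03 FPKM (control 10) in control piglets and from 7.67 (starch 9) through 8.61 to 11.23 FPKM (starch 6) in starch piglets. The diet difference of -0.07 (95% interval -0.33 to 0.18) and the slope of 0.11 per SD (-0.01 to 0.24, adjusted p = 0.152 in edgeR) had the narrowest intervals of the 11 members. In the 18 its slope was 0.05 (-0.47 to 0.57).

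Raw counts describe the 15 members that stayed below the filter. Of these, 11 had fewer than 10 counts in every piglet. The highest count was 46 for CYP1B1, 32 for CYP27B1, 21 for CYP26B1 and 12 for CYP4F22. In a fit without the filter, 0 of 26 members were called for diet (beside 0% of 18630 genes). At an unadjusted p under 0.05 there were 524 genes and 4 members, CYP2D6 and the low members CYP26A1, CYP1A2 and CYP11A1. For the absorptive score the same fit called 11 of 26 (beside 28.3% of genes), and the low members among them were CYP7A1, CYP27B1, CYP17A1 and CYP1B1, all falling with the score.

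CYP27B1, the hydroxylase that makes active vitamin D, had 0 to 31 counts in control and 2 to 32 in starch piglets. Control 5 (31 counts), control 8 (12) and starch 3 (32) lay above the 0 to 11 counts of the other 18, with a slope of -0.88 per SD (SE 0.16, adjusted p = 0.00019 in edgeR without the filter). CYP24A1, which breaks active vitamin D down, had at most 4 counts in any piglet. The kidney is the best known site of both enzymes.

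Of the family induced through the aryl hydrocarbon receptor, CYP1B1 had 0 to 46 counts in control and 4 to 28 in starch piglets, with 46, 3 and 19 counts in control 5, control 8 and starch 3 and 0 to 28 in the 18. Its slope was -0.66 per SD (adjusted p = 0.0295 in edgeR without the filter). CYP1A1, the classic marker of that receptor, had 64 counts in all, was listed in 5 of 10 control and 10 of 11 starch piglets, and had 0 counts in control 5, control 8 and starch 3. In all, 6 piglets had 0 counts of CYP1A1. Its slope was 1.07 per SD and was not called (unadjusted p = 0.0242, adjusted p = 0.0758 in edgeR without the filter). Its highest count was 9, in starch 4, and its diet difference had an unadjusted p of 0.254. CYP1A2 had 25 counts in all, at most 2 in a control piglet and at most 7 in a starch piglet.

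CYP7A1, the rate-limiting enzyme of bile acid synthesis in liver, had 12 counts in all, of which starch 3 held 8. Control 5 and control 8 held 1 each and the 18 piglets 0 or 1. Its slope of -1.38 (adjusted p = 3.47e-05 in edgeR without the filter) was thus drawn from very few reads, most of them in 1 piglet. The steroid hormone enzyme CYP17A1 had 11 counts, 6 of them in starch 3 (slope -1.18, adjusted p = 0.00152), and CYP11A1, which starts steroid hormone synthesis, had 17 counts, 6 of them in starch 10. Markers of liver cells and of steroid-producing cells were near 0, with summed levels of at most 3.98 and 0.92 CPM over the 7 and 5 list genes in the files.

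The retinoic acid clearing enzymes were low, CYP26B1 with 3 to 21 counts in each piglet, CYP26A1 with 5 counts in 2 starch piglets and CYP26C1 with 1 count in starch 4. CYP46A1, the cholesterol hydroxylase of brain, had 59 counts in all and at most 7 in 1 piglet. CYP2F1, best known from lung, and CYP4F22, a fatty acid hydroxylase of the skin barrier, had 28 counts each, of which starch 9 held 12 of CYP4F22. CYP4B1 had 4 counts. No difference between the diets was detected at these counts, with the smallest unadjusted p of this group that of CYP26A1 (p = 0.0382, adjusted p = 1 in edgeR without the filter).

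**Figure D4:**
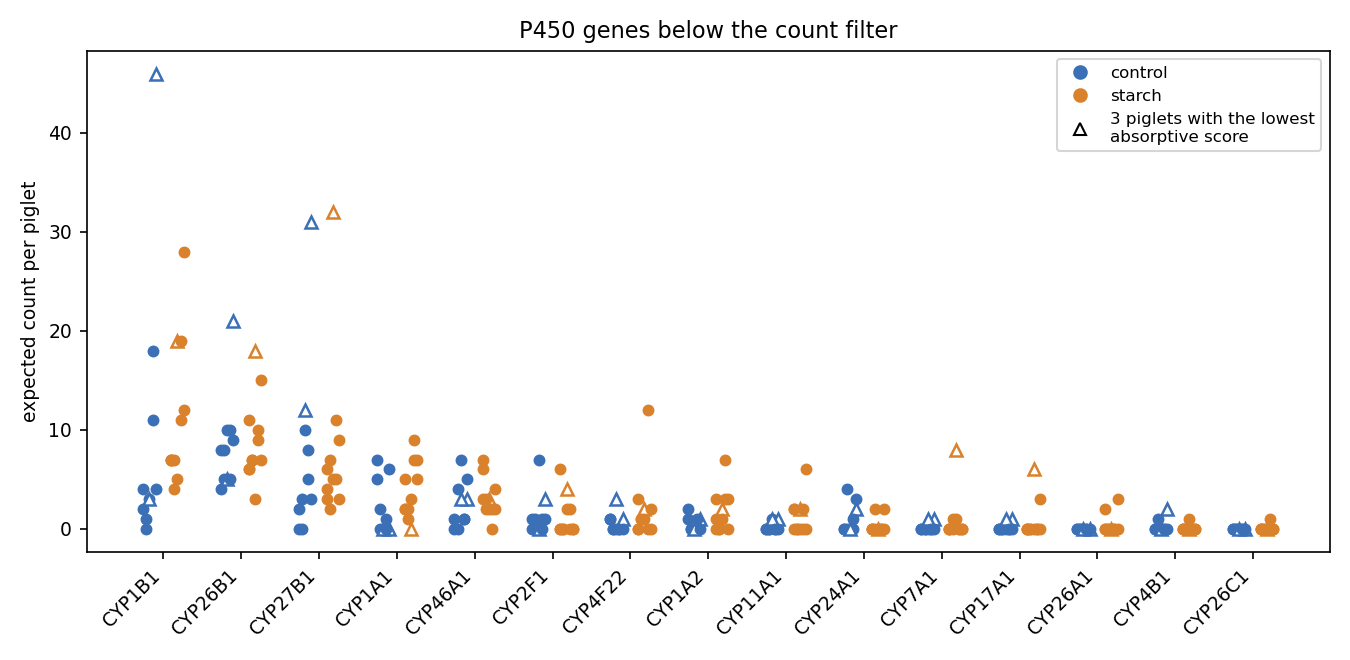
Expected count per piglet of the 15 P450 genes below the filter, with control piglets in blue, starch piglets in orange and the 3 piglets of lowest absorptive score as open triangles. The triangles of CYP27B1 (12 to 32 counts) lie above its other points, and most of the genes to the right of CYP46A1 stay near 0.

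The relation to absorptive content was also described piglet by piglet. Since the scores fall into clusters, the correlation was computed within the 18 piglets, on log2 CPM, with permutation tests of 100000 resamples adjusted over all 13127 genes. No member was called (0 of 11, beside 7.34% of genes, 963 in number, and 3338 genes at an unadjusted p under 0.05). CYP27A1 had r = 0.62 (permutation p = 0.00639, adjusted 0.0671) and rho = 0.61 (permutation p = 0.00812, adjusted 0.0684). CYP4V2 had r = -0.62 (permutation p = 0.00572, adjusted 0.0628) and rho = -0.54 (p = 0.0213, adjusted 0.113). CYP2U1 had r = -0.60 (permutation p = 0.00819, adjusted 0.0767) and rho = -0.60 (p = 0.00929, adjusted 0.073). These 3 members lay nearest to the threshold, and without starch 4 and control 2, the piglets farthest from the median score, r was 0.43 for CYP27A1, -0.51 for CYP4V2 and -0.64 for CYP2U1.

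CYP2D6 (r = 0.53, permutation p = 0.0223, adjusted 0.126, rho = 0.52, p = 0.0294, adjusted 0.135) and CYP2W1 (r = 0.52, permutation p = 0.0267, adjusted 0.14, rho = 0.58, p = 0.0127, adjusted 0.0861) followed, with r = 0.35 and 0.50 without those 2 piglets. CYP4F3 had r = 0.26 (permutation p = 0.301, adjusted 0.534) and rho = 0.48 (p = 0.0442, adjusted 0.169), and without the 2 piglets r = 0.74. For the other 5 tested members r lay between -0.40 and 0.18.

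Other cell types moved with the score in the same libraries, in which 19.2% of all genes rose and 19% fell. All 10 macrophage markers fell with it (summed level 2431 to 3435 CPM in control 5, control 8 and starch 3 and 371 to 1575 CPM in the 18), as did 7 of 9 smooth muscle markers (21981 to 38574 against 6425 to 22172 CPM), 5 of 8 fibroblast, 3 of 6 goblet cell and 2 of 7 endothelial markers. Of 12 general epithelial markers 4 rose and 3 fell, and their sum, 5107 to 8268 CPM in the 3 and 4082 to 9194 CPM in the 18, overlapped. None of 6 T cell and 6 B cell markers tested was called. With smooth muscle content as a term the slopes were -0.34 for CYP7B1 and -0.33 for CYP4V2, as large as without it though no longer called, and -0.29 for CYP2A19 (not called), while CYP2S1 was still called. The part of macrophages and the other cells in these slopes and in that of CYP27B1 was not tested.

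Genes that serve P450s were followed in lists of their own, in which 0 genes were called for diet, and their counts for the score stand beside the 19.2% of all genes that rose and 19% that fell. In the 13 tested genes of electron and haem supply, 5 rose and 2 fell with the score, among them the reductase POR (0.25 per SD, adjusted p = 0.0095 in edgeR) and cytochrome b5, CYB5A (0.49, but 0.03 in the 18 piglets). Of 20 tested receptors and factors that control P450 genes, 10 rose and 2 fell. NR1I3 had the steepest slope of those named (3.07, with 0.00 FPKM in control 5, control 8 and starch 3), ahead of NR1H4 (1.98), NR1I2 (0.73), VDR (0.62), ESRRA (0.54), HNF4A (0.40) and RXRA (0.29). AHR had a slope of -0.09 (adjusted p = 0.672), and its repressor AHRR was not tested, with at most 13 counts. In the 18 piglets POR (0.91), NR1I2 (0.68) and NR1I3 (2.81) were called. The slopes of NR1H4 (0.28), VDR (0.42), ESRRA (0.53), HNF4A (-0.04) and RXRA (0.53) were not called there, and RXRA was not called on the FPKM scale.

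Among aryl hydrocarbon receptor targets outside the P450s 1 of 5 rose (SCIN, 0.69) and 2 fell (IDO1, -1.46, and NQO1, -0.42). Vitamin D receptor targets gave 2 of 3 that rose, the calcium binding protein S100G (2.05) and the calcium pump ATP2B1 (0.21), whose call was lost with upper-quartile scaling, on the FPKM scale, with smooth muscle content as a term and without control 8 or starch 3, while the channel TRPV6 had a slope of -0.26 (adjusted p = 0.329). Conjugating enzymes gave 7 of 13 that rose, with SULT1B1 (1.98) and GSTK1 (0.60), and 1 that fell, TPMT (-0.86). Of 8 tested drug carriers 4 rose, with ABCC6 (2.17) and ABCC2 (2.06), and ABCC3 fell (-0.73). Only 16 of the 30 conjugating enzymes listed had values under their symbols, with UGT1A1 and GSTA1 among those absent. For the drug carriers this held for 10 of 14, with ABCB1 and ABCG2 among those absent. In the 18 piglets S100G (2.61), SULT1B1 (2.07), GSTK1 (1.04), ABCC6 (2.19), ABCC2 (2.22) and ABCC3 (-1.31) were called, and TPMT had a slope of -0.14. At most 3 genes of each of these lists are named, those with the smallest p for the same score.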

How the data were processed

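RNA of the distal small intestine of 21 piglets had been sequenced, and the authors deposited 1 table of transcripts for each piglet. Its columns, per the file headers, give a length, an expected count and an FPKM. The deposited expected counts are raw estimates and can hold fractions, and the deposited FPKM had been divided by length and depth before deposit. Nearly all lengths are multiples of 3 and so are coding lengths. The submitters' processing notes name HISAT and DESeq2, with no version or role. The counting program and the genome build are not stated in what was used here. A transcript missing from a piglet's table counted as 0. Expected counts and FPKM were summed per gene, and the counts rounded to whole numbers for the tests. Symbols came from a table of pig gene names. No sequence or coordinate is printed.

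The main test was edgeR 4.0.16 in R 4.3.3 (quasi-likelihood, TMM, filterByExpr with a minimum count of 10 and a minimum total of 15), adjusted by Benjamini-Hochberg over all 13127 genes tested, at a threshold of 0.05. Models held diet alone, or the absorptive score and diet, or both with their interaction. Log2 fold changes are starch minus control with 95% intervals. Totals of 6719264 to 8610458 expected counts per piglet leave low members at a few counts each. Alternatives were other scalings, DESeq2 1.42.0, limma 3.58.1 on the log2 scale of FPKM with 0.5, 0.1 or 1 added, other filters, other scores and covariates, the replicate number as a block, and leaving out piglets. One alternative, without control 5, control 8, starch 3 and starch 4, was chosen after seeing the data. The tests were checked on simulated counts.

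The members and gene lists were chosen with earlier results of these data known. Every tested member is given by lowest, median and highest value, members below the filter by raw counts, and partner genes are 10 fixed names plus up to 3 per list with the smallest p for the score.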

Additional observations from a re-analysis of the deposited data

Results flagged for a closer look

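Single control piglets stood apart from the other 9 for 7 P450 genes below the filter, by a gap of more than 0.466 of the group's range (Dixon's test for 10 samples). Control 5 was highest for CYP1B1 (46 counts, next 18), CYP27B1 (31, next 12), CYP26B1 (21, next 10) and CYP4B1 (2, next 1). Control 8 was highest for CYP4F22 (3 counts, next 1), control 3 for CYP2F1 (7, next 3) and control 1 for CYP1A2 (2, next 1). The gaps of CYP4B1, CYP4F22 and CYP1A2 are of 1 or 2 counts. Among the partner genes, ATP2B1 was lowest in control 8 (117 CPM, next 183). These are 8 of 49 genes tested in this way in the control group, where chance gives about 1 in 20 for normal values. That rate does not hold for low, tied counts, on which 7 of the 8 rest. The 11 starch piglets were not tested in this way, so no single starch piglet could be flagged. Control 5 and control 8 are also the control piglets of lowest absorptive score, whose part in these values was not tested.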

How the results depend on the processing

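The count of members called for diet, for diet at equal score and for a slope that differs between the diets was 0 in every alternative run. The count called for the absorptive score, 8 of 11, was 6 to 9 when each piglet was left out in turn, 0 without control 5, control 8 and starch 3, 1 when starch 4 was left out as well, 0 with the epithelium score and 4 with smooth muscle content as a covariate. With all 21 piglets 6 of 11 members were called by correlation, beside 38.2% of genes, against 0 within the 18, beside 7.34%.

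Slopes that changed sign with the epithelium score were those of CYP2W1 (-0.59), CYP27A1 (-0.069), CYP2R1 (-0.0053), CYP2S1 (0.10), CYP2A19 (0.32), CYP39A1 (0.14), CYB5A (-0.13), CYB5B (0.22), VDR (-0.060), RXRA (-0.20), SCIN (-0.11), IDO1 (0.24), NQO1 (0.083), ATP2B1 (-0.15), TRPV6 (0.62), SULT1B1 (-0.12), ABCC6 (-0.32), ABCC2 (-0.11) and ABCC3 (0.041). Smooth muscle content turned CYP39A1 (0.13) and TRPV6 (0.032). Without control 5, control 8 and starch 3 the slopes of CYP2A19 (0.41) and HNF4A (-0.043) turned, as did the diet differences of CYP7B1 (0.021) and CYP4F3 (-0.069, and -0.063 at equal score). Leaving out starch 4 as well turned the slopes of CYP39A1 (0.075), CYP2A19 (0.48), CYP2R1 (-0.0015), CYB5A (-0.10), CYB5B (0.30), TRPV6 (0.17) and TPMT (0.39) and the diet difference of CYP4F3 (-0.43, and -0.29 at equal score). The cause of these changes was not tested.

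Leaving out each piglet in turn turned values near 0. The diet difference ran from -0.27 to 0.27 for CYP4F3 (-0.036 to 0.70 at equal score), from -0.61 to 0.13 for CYP2W1, from -0.047 to 0.20 for CYP2U1 and from -0.15 to 0.075 for CYP7B1, and the slope from -0.042 to 0.012 for CYP39A1 and from -0.22 to 0.14 for AHR.

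No pairing by replicate number was seen in deviations from the group means over all genes tested. These deviations also carry the absorptive score, and a shared litter or batch was not tested. Same-numbered piglets correlated with r from -0.337 to 0.485, 4 of 10 pairs above 0.1, and 0 correlated best with their own number. With the number as a replicate block 6 members were called for the score and 0 for diet, and AHR's slope was 0.073. The share of all genes called for the score with that block is not given here, so the 6 cannot be set against it.

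Depth limits the 15 members below the filter, where 11 never reached 10 counts.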
